A study of Mus musculus with 30 samples.

Results

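Repair Schwann cell genes are the genes that Schwann cells, the glia of peripheral nerve, switch on or up when they lose contact with their axon. The set held 9 genes chosen by name: Gdnf, Cdkn2a, Sox4, Shh, Olig1, Runx2, Ngfr, Btc and Artn. Of these, 7 genes were listed in the count tables, with 9 transcripts of 20423. Olig1, a basic helix-loop-helix factor of glia, and Artn, a ligand of the GDNF family, were not listed in any of the 4 tables and have no value here. RNA was sequenced from mouse sciatic nerve axoplasm, here the supernatant of freshly dissected nerve that was ground and spun, with 10 nerves pooled for each sample. Naive nerve was compared with nerve 7 days after a mid-thigh crush. Each extract was sequenced directly (input), or after immunoprecipitation (IP) with an antibody to nucleolin or to PTBP1, or after the same IP with an antibody that had first been saturated with its blocking peptide (blocked IP). Naive and injured nerve thus gave 10 groups of 3 libraries, 30 in all, which the labels call independent biological repeats. The labels give no strain, sex or age, and name no transgene.

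After a crush, axons beyond the lesion degenerate and their Schwann cells stop making myelin, divide, clear debris and turn into repair cells that feed and guide regrowing axons. The transcription factor Jun is the known driver of that change, and GDNF, Sonic hedgehog, betacellulin and artemin are among the signals such cells release. Nucleolin and PTBP1 are RNA-binding proteins, the first with a known role in carrying mRNAs to sites in the cell and the second a binder of pyrimidine-rich RNA that is best known for repressing exons.

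The extract held RNA of every cell type in the nerve, so a level is that of the whole extract, and fewer cells of a type and less RNA per cell cannot be told apart. The libraries held 7536033 to 22919174 counts each. In input, all 8 markers of Schwann cells in any state fell after injury, from a summed 26540 to 49490 CPM (counts scaled by TMM library size) in naive libraries to 4585 to 7083 CPM. Of 11 macrophage markers tested, 8 rose, from a sum of 1490 to 2291 CPM to 7940 to 10410 CPM. All 6 markers of dividing cells tested rose, from 25.6 to 39.7 CPM to 537 to 710 CPM. The part of these shifts in the results that follow was not tested.

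Both alternative transcripts of Cdkn2a were listed, and they start at separate promoters, which are shown because the transcripts differ in where they start. They share later exons, and no source used here says how reads were divided between them, so the counts of one may hold reads of the other. Cdkn2a-201 (chr4:89274471-89282192, minus strand, 3 exons, 852 nt, GRCm38) encodes the cell-cycle inhibitor p16 of the INK4A reading frame. Cdkn2a-202 (chr4:89274541-89294653, minus strand, 895 nt) starts farther upstream and encodes the ARF protein, which stabilizes p53. The promoter of Runx2-204 is shown because that transcript was counted in PTBP1 IP libraries and in none of the PTBP1 blocked libraries. All are RefSeq sequences on GRCm38.p6, read 5′ to 3′ on the minus strand, from 250 bases before to 50 bases after the annotated start. Capitals mark the RUNX motif.
Cdkn2a-201 start, chr4:89282143-89282442: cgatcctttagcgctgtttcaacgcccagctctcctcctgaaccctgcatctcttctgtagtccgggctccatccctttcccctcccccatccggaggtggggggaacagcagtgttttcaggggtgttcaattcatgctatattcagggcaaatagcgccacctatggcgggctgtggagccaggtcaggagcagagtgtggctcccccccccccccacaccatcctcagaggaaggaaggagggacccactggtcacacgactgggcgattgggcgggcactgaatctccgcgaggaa
Cdkn2a-202 start, chr4:89294570-89294869: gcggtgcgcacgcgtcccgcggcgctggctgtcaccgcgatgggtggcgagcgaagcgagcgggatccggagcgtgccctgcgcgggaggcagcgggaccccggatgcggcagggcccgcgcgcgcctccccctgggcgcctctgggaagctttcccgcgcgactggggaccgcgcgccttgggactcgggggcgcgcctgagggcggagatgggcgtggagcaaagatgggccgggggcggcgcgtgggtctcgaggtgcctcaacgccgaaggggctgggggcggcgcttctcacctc
Runx2-204 start, chr17:44814578-44814877: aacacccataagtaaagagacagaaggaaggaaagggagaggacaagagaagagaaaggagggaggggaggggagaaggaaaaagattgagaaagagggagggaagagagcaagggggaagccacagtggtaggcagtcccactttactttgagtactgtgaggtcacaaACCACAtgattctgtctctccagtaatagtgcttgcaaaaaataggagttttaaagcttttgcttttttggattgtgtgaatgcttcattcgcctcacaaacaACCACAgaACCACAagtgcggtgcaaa

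The set of RefSeq promoters used here held 9 such promoters for 7 of the genes. It held none for Shh or Olig1, which were not searched. The RUNX motif TGTGGT, searched on both strands, was found in the Runx2 promoter alone among them, with 3 matches that begin at positions -80, 24 and 32 from the start and do not overlap each other. They read as its reverse complement on the strand shown. Of 32851 mouse promoters of this length, 16.8% held the motif at least once. The share with 3 matches was not counted. The AP-1 motif TGANTCA, the letters bound by Jun with its partners, was in 7.81% of all promoters and in none of these 9 windows. A match is a description of the letters and not a site.

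The first comparison asked how the RNA of the extract differed 7 days after crush. In input, 4 of the 6 listed transcripts rose: Gdnf, Btc, Cdkn2a-201 and Sox4. By the same test 14.5% of all 14095 transcripts rose. None fell, where 13.4% of all transcripts did. Shh and Ngfr were not called, with Shh higher in every injured library and Ngfr lower on average. The input table lists a transcript only if injured input 2 and injured input 3 each had at least 5 counts, so transcripts with little RNA after injury could not be among the 6.

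**Figure D1:**
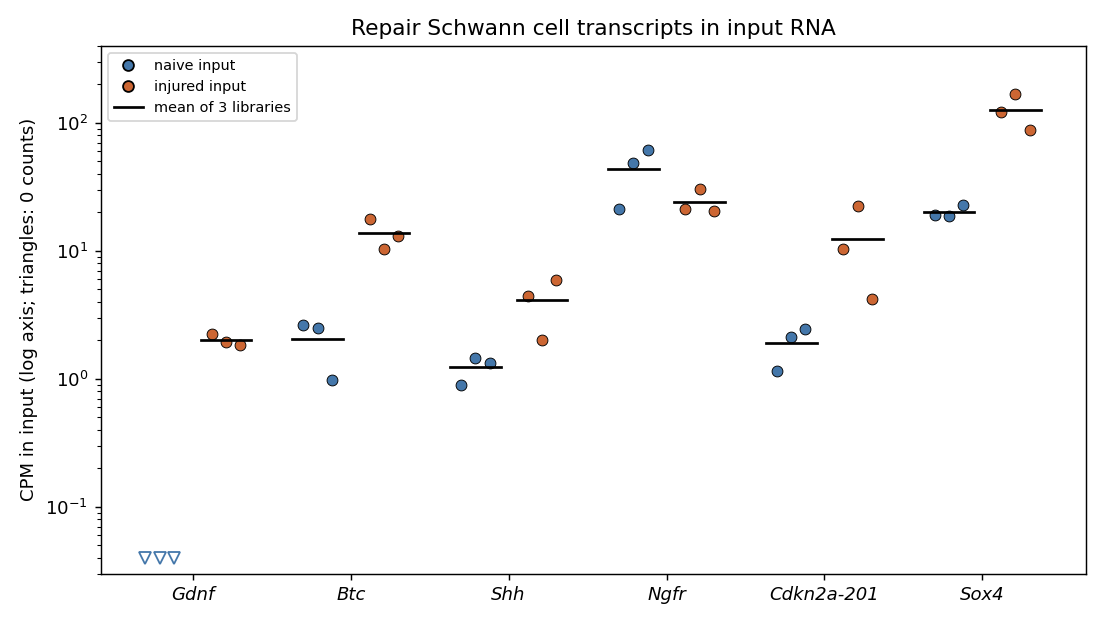
CPM of the 6 listed transcripts in the 3 naive and 3 injured input libraries, on a log axis, with bars at the mean of 3 libraries and open triangles for 0 counts. Gdnf had no count in naive libraries, Sox4 lay at 88.4 CPM or more in injured and at 22.7 CPM or less in naive libraries, and the groups overlapped for Ngfr alone. Heights of different genes are not corrected for transcript length.

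Of the secreted signals, Gdnf (Gdnf-201, chr15:7810846-7837575, plus strand, 3 exons) encodes the survival factor for motor and sensory neurons that signals through Ret with Gfra1. Injured inputs 1, 2 and 3 held 9, 24 and 31 Gdnf counts, or 2.22, 1.94 and 1.83 CPM. Naive inputs held 0, 0 and 0 counts. The groups were apart, and Gdnf was at least 34.7-fold higher after injury against a floor of 3 counts over the naive group, which covers counting error only. It rose with an edgeR adjusted p of 0.000815 (quasi-likelihood test, Benjamini-Hochberg over all transcripts). The input filter used injured libraries alone, so some excess of Gdnf over naive nerve follows from its being listed.

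Btc (Btc-201, chr5:91357261-91402994, minus strand) encodes betacellulin, an EGF family ligand of Egfr and Erbb4. It stood at 17.8, 10.3 and 13.0 CPM in injured inputs and 2.63, 2.51 and 0.972 CPM in naive inputs. Every injured library lay above every naive one. Btc rose by 2.74 ± 0.53 on the log2 scale (SE, n = 3 per group; edgeR adjusted p = 0.00241).

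Shh (Shh-201, chr5:28456815-28467256, minus strand) encodes Sonic hedgehog, a ligand known from denervated Schwann cells. It stood at 4.45, 2.02 and 5.96 CPM in injured inputs and 0.898, 1.46 and 1.33 CPM in naive inputs. The groups were apart, as they were in the same direction for 22.5% of all transcripts, but the log2 fold change of 1.74 ± 0.64 did not pass the test (edgeR adjusted p = 0.0593). DESeq2 put it past the threshold (1.73, adjusted p = 0.025), as did edgeR on counts summed per gene (1.77, adjusted p = 0.0456). No other alternative did, and with 1 library left out edgeR adjusted p were 0.0558 to 0.213.

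Ngfr (Ngfr-201, chr11:95568818-95587735, minus strand) encodes the low-affinity neurotrophin receptor p75NTR, which immature and denervated Schwann cells carry. It stood at 21.3, 30.3 and 20.4 CPM in injured inputs and 21.4, 48.4 and 61.8 CPM in naive inputs. Naive input 1 lay among the injured libraries and the other naive libraries lay above them. The log2 fold change of -0.87 ± 0.38 was not called (edgeR unadjusted p = 0.0391, adjusted p = 0.108). Without naive input 1 it was -1.21 with an edgeR adjusted p of 0.0171. Ngfr passed in no other alternative, and with 1 library left out edgeR adjusted p reached 0.357. The median over the 8 Schwann cell markers in the same libraries was -1.84.

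Sox4 (Sox4-201, chr13:28948919-28953713, minus strand, 1 exon) encodes an HMG-box transcription factor of immature Schwann cells that is known to slow myelination. It stood at 122, 168 and 88.4 CPM in injured inputs and 19.0, 18.7 and 22.7 CPM in naive inputs. No injured library came near the naive range. Sox4 rose by 2.65 ± 0.29 on the log2 scale (edgeR adjusted p = 4.63e-05), and by 2.34 to 2.84 with each library left out in turn.

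Cdkn2a-201 stood at 10.4, 22.6 and 4.19 CPM in injured inputs and 1.16, 2.14 and 2.46 CPM in naive inputs. The groups were apart, with injured input 2 far above the other injured libraries. The transcript rose by 2.68 ± 0.64 on the log2 scale (edgeR adjusted p = 0.00822). Without injured input 2 the value was 1.85 and the call was lost (adjusted p = 0.0813). Cdkn2a-202 was not listed for input, nor was any Runx2 transcript, the RUNX factor best known from bone. Which share of the input counts came from the INK4A form was not tested.

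The partners of these genes did not all move with them in input. Each pathway list was counted over its tested genes, beside a median log2 fold change of 0.00 and shares of 14.5% called higher and 13.4% called lower over all transcripts. Of 7 genes of the GDNF family and its receptors, 3 rose and 1 fell, with a median of -0.24. Besides Gdnf, the alternative receptors Ncam1 (1.90) and Sdc3 (1.01) rose, and Gfra1, the GDNF-binding co-receptor, fell by 1.84. The signalling receptor Ret had a log2 fold change of -1.10 and was not called (edgeR adjusted p = 0.106; named after its value was seen).

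Of 13 Hedgehog pathway genes 2 rose and 3 fell, with a median of -0.87. Dhh, the Hedgehog ligand of myelinating Schwann cells, stood at 13.3 ± 5.93 CPM after injury against 243 ± 94.2 CPM before (SD, n = 3) and fell by 4.19. Shh stood at 4.14 ± 1.99 and 1.23 ± 0.295 CPM in the same groups. Gli1, a target gene and effector of the pathway, fell by 2.24 and the transducer Smo by 1.33, while the acyltransferase Hhat (1.16) and Gli3 (0.87) rose.

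All 3 called genes among 4 tested of the neurotrophin list fell, the receptors Ntrk3 (-2.10), Ntrk2 (-1.87) and Sort1 (-1.13), for a median of -1.50 with Ngfr included. Of 6 EGF family genes, Btc alone rose and 3 fell, the ligand Tgfa (-1.50) and the receptors Erbb3 (-1.16) and Egfr (-0.74), with a median of -0.44.

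In the INK4/ARF, p53 and RB circuit 3 of 13 genes rose and 2 fell, with a median of 0.59. Besides Cdkn2a, the S-phase regulator E2f1 (2.44) and cyclin D1, Ccnd1 (2.32), rose, while Cdkn1a, the p53 target p21, fell by 1.27 and Rb1 by 0.73. Ccnd1 drives division and the INK4A protein halts it, and the markers of dividing cells rose in the same libraries. Cdkn2b, the neighbouring INK4 gene, had a log2 fold change of -0.89 and was not called (edgeR adjusted p = 0.12; named after its value was seen).

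Of 16 tested factors of immature and repair Schwann cells 4 rose and none fell, with a median of 0.56. They were Id2 (3.40), an inhibitor of differentiation, Zeb2 (2.66), measured by a retained-intron transcript, Sox4 and Ncam1. Jun, named after its value was seen, stood at 144 ± 32.8 CPM after injury against 101 ± 19.6 CPM before, and was not called (log2 fold change 0.51, edgeR adjusted p = 0.154). Of 15 myelin genes tested 11 fell and 2 rose, with a median of -2.41. The risers were Pou3f2 (1.36), a factor of promyelinating cells, and one transcript of Mbp (0.98), and the largest falls called were Dhh, Ugt8a (-3.71), Mal (-3.45) and S100b (-3.43).

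**Figure D2:**
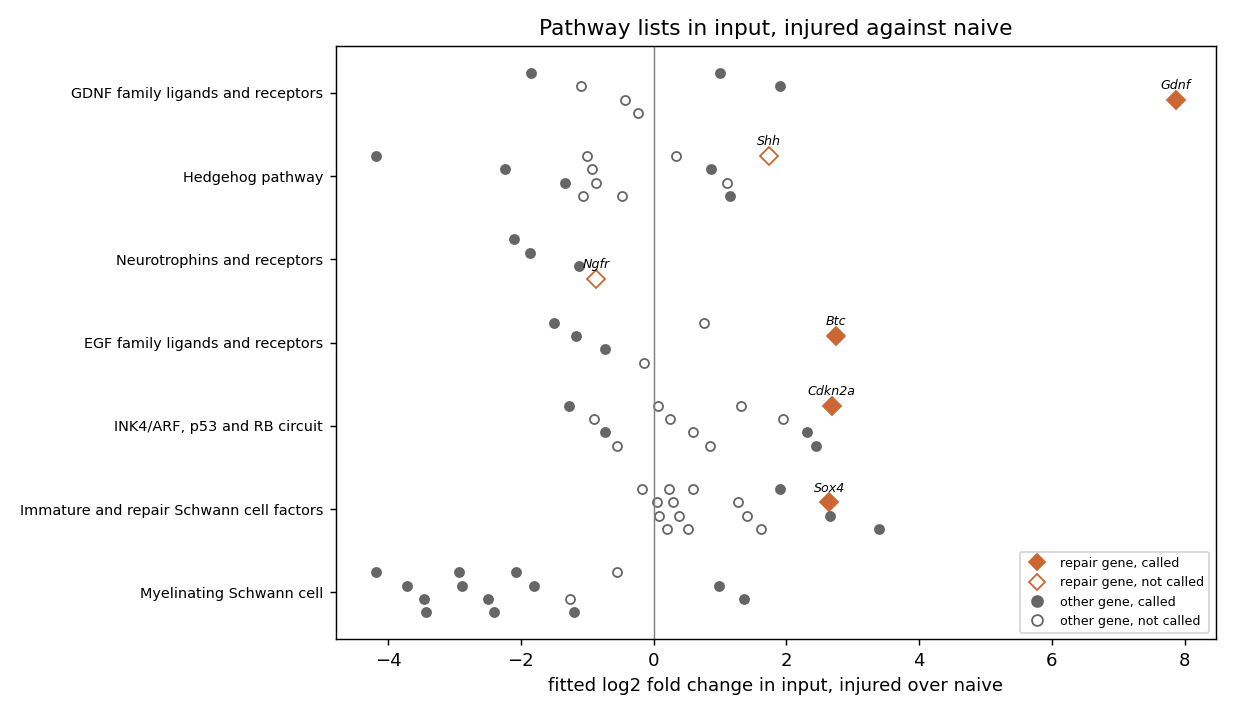
Fitted log2 fold change in input, injured over naive, of each tested gene in 7 lists, with diamonds for the repair genes, circles for the others and filled symbols for those called by edgeR at an adjusted p of 0.05. Gdnf, Btc, Cdkn2a and Sox4 lie to the right of 0 and are filled, Shh and Ngfr are open, and 11 of 15 myelin genes lie to the left and are filled. The value of Gdnf (7.86) depends on the fit because naive inputs held no count.

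The same injury comparison was made within the IP and blocked IP libraries, which are separate libraries from the inputs. Sox4 and Cdkn2a-201 were higher in every injured than every naive library in input and in all 4 kinds of IP library. That was so in the same direction for 22.5% of all transcripts in input, 14.8% in nucleolin IP, 12.6% in nucleolin blocked IP, 15.4% in PTBP1 IP and 8.95% in PTBP1 blocked IP. The share of transcripts apart in every kind of library at once was not counted. It cannot be had by multiplying these shares, since an injury shift can be common to all kinds. None of these IP differences of the repair genes passed edgeR's test. The shares of all transcripts called higher were 0.397% in nucleolin IP, 0.735% in nucleolin blocked IP, 0.00688% in PTBP1 IP and 0.0206% in PTBP1 blocked IP.

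For Sox4 the nucleolin IP held 71.1, 97.0 and 108 CPM in injured and 14.0, 16.8 and 24.6 CPM in naive libraries. The log2 fold change was 2.32 ± 0.87 (edgeR adjusted p = 0.277), and 2.33 with an adjusted p of 0.0211 when the 6 compared libraries were fitted alone. No other alternative passed, and with 1 library left out edgeR adjusted p were 0.362 to 0.62. Nucleolin blocked IP held 261, 162 and 139.8 CPM of Sox4 in injured and 0.64, 6.49 and 27.1 CPM in naive libraries. The assignment of naive blocked IP 3 rests on its column name alone. Naive blocked IP 1 was the lowest of all 30 libraries for Sox4, with 11 counts. The log2 fold change there was 4.04 ± 0.94, just short of the threshold (edgeR adjusted p = 0.0522). Median-of-ratios size factors (adjusted p = 0.0456), library totals (0.0465), the replicate block (0.035) and DESeq2 (0.000123) put it past, as did leaving out naive blocked IP 1 (0.0401) or 3 (0.0191). The other alternatives did not, with edgeR adjusted p up to 0.232, nor did leaving out any other library (up to 0.133).

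In PTBP1 IP, Sox4 stood at 450.3, 426 and 125 CPM in injured and 34.4, 45.5 and 25.2 CPM in naive libraries. The log2 fold change was 3.25 ± 0.77 (edgeR adjusted p = 0.255; DESeq2 3.51, adjusted p = 0.00126). PTBP1 blocked IP held 120.2, 109 and 94.9 CPM in injured and 73.2, 92.4 and 15.9 CPM in naive libraries, a log2 fold change of 0.84 ± 0.71 (edgeR adjusted p = 0.536). The lowest injured and the highest naive library there were close, at 94.9 and 92.4 CPM.

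Cdkn2a-201 held 5.60, 9.72 and 10.6 CPM in injured and 0.37, 2.28 and 2.96 CPM in naive nucleolin IP. In nucleolin blocked IP it held 8.40, 3.90 and 14.1 CPM in injured and 1.51, 0.621 and 2.43 CPM in naive libraries. Both kinds of nucleolin library kept injured and naive nerve apart. In PTBP1 IP it held 3.79, 4.73 and 6.30 CPM in injured and 3.64, 2.58 and 2.11 CPM in naive libraries, where the nearest libraries were almost level. PTBP1 blocked IP held 4.67, 9.10 and 15.1 CPM in injured and 3.32, 1.22 and 1.40 CPM in naive libraries. Log2 fold changes were 2.20 ± 1.06, 2.53 ± 1.07, 0.83 ± 1.40 and 2.28 ± 1.46 in that order, with edgeR adjusted p of 0.423, 0.21, 0.89 and 0.389. By DESeq2 the blocked IP differences passed, with adjusted p of 0.027 for nucleolin and 0.00666 for PTBP1.

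Gdnf had 1 count in all over the 9 naive libraries of the tables that list it, and 5 to 500 counts in each of the 15 injured libraries. Injured PTBP1 IP held 4.72, 11.1 and 3.55 CPM, and naive PTBP1 IP 0, 1 and 0 counts. The ratio of summed counts over summed library sizes was 287, with a 95% counting interval of 51.2 to 11390. Injured PTBP1 blocked IP held 0.418, 8.01 and 13.1 CPM against no count in naive blocked IP, at least 176-fold higher. These groups were apart, yet the spread among injured libraries was wide and edgeR's adjusted p were 0.284 and 0.115 (DESeq2 0.000593 and 7.78e-06). Gdnf met the filter of the PTBP1 table through its injured groups alone, so some excess over naive nerve follows from its being listed. It is not listed in the naive nucleolin table, so nucleolin libraries allow no such comparison.

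Shh and Btc, both ligands, varied widely between IP libraries. Shh had 21 to 106 counts in injured PTBP1 IP and 1, 0 and 59 in naive PTBP1 IP. In PTBP1 blocked IP it had 0, 20 and 450 counts after injury and 3, 0 and 40 in naive nerve. Btc had 14, 64 and 122 counts in injured PTBP1 IP, while naive PTBP1 IP held 0, 526 and 16, so that naive library 2 alone lay above all the injured ones. Both met the filter of that table in injured PTBP1 IP alone. The groups overlapped in each of these comparisons, and none was called. Ngfr overlapped between injured and naive nerve in nucleolin IP (log2 fold change -0.24 ± 0.56) and PTBP1 IP (-0.78 ± 0.90). In PTBP1 blocked IP its 3 injured libraries, at 24.6, 26.5 and 25.6 CPM, lay below the naive ones at 33.0, 33.1 and 34.1 CPM, as 11.3% of all transcripts did (-0.39 ± 0.89, edgeR adjusted p = 0.858).

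**Figure D3:**
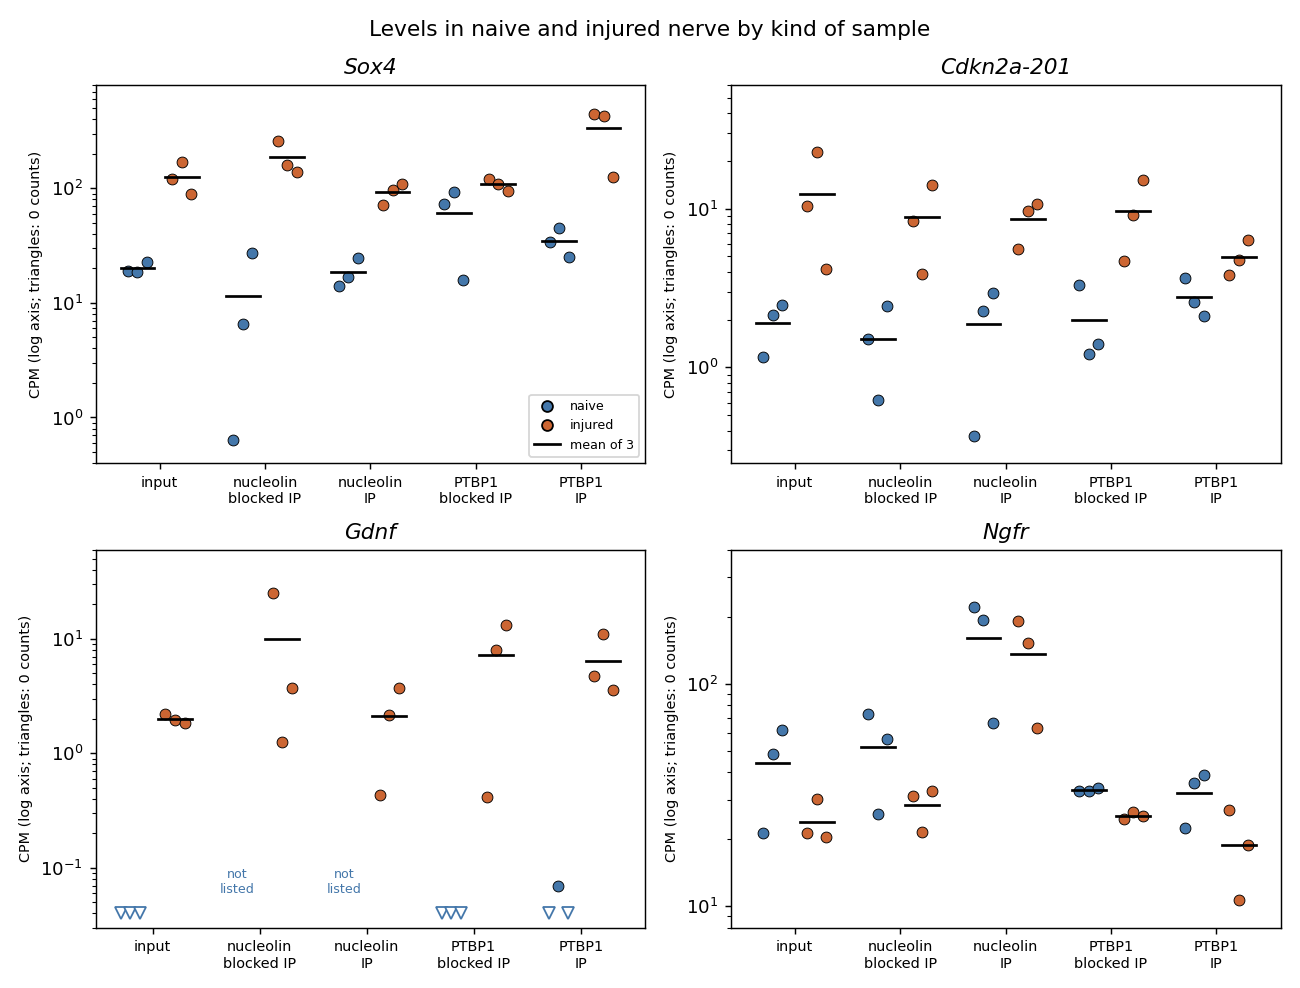
CPM of Sox4, Cdkn2a-201, Gdnf and Ngfr in each of the 30 libraries on log axes, by kind of sample, with bars at the mean of 3 libraries and open triangles for 0 counts. Injured libraries lie above naive ones in all 5 kinds of sample for Sox4 and Cdkn2a-201, and Gdnf has 1 naive count in all. Ngfr lies at 63.2 to 222 CPM in nucleolin IP and 21.6 to 73.3 CPM in nucleolin blocked IP.

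Other markers moved in the same libraries. The summed markers of dividing cells stood at 790 to 1148 CPM in injured and 37.5 to 87.9 CPM in naive nucleolin IP, and at 812 to 1521 and 30.3 to 79.3 CPM in PTBP1 IP. The summed Schwann cell markers stood at 3550 to 7235 CPM in injured and 15320 to 31390 CPM in naive nucleolin IP, and at 6748 to 17070 and 24290 to 41580 CPM in PTBP1 IP. Of the lists of pathway genes, Id2 rose in nucleolin IP (2.73) and in nucleolin blocked IP (2.40), Cldn19, a myelin junction protein, fell in the first by 2.38, and Ugt8a (-4.70), S100b (-3.15) and Drp2 (-2.34) fell in the second. For PTBP1 edgeR called 1 transcript in IP and 4 in blocked IP over all, with no gene of the 7 lists among them.

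The next comparisons asked which RNAs each antibody recovered above its peptide-blocked background. No repair gene passed edgeR's test for either antibody in either condition, and neither did any other transcript, so the share called was 0% in each, the injured nucleolin table included. At an unadjusted p under 0.05 edgeR gave 1422 transcripts for nucleolin in naive nerve, 769 in injured nerve, 1893 for PTBP1 in naive nerve and 1815 in injured nerve. DESeq2 called 761, 314, 1099 and 902 in the same order. The change of enrichment with injury had 0 calls for each antibody, with 302 transcripts at an unadjusted p under 0.05 for nucleolin and 1147 for PTBP1 (DESeq2 20 and 415). For IP over blocked IP, a repair gene with all IP libraries above all blocked ones is read against 12.3% of all transcripts for nucleolin in naive nerve and 9.26% for PTBP1 in naive nerve, with the injured shares given below.

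Ngfr, the neurotrophin receptor, stood above background in injured nucleolin IP. Injured nucleolin IP held 191, 152 and 63.2 CPM and injured blocked IP 31.3, 21.6 and 33.0 CPM. All IP libraries lay above all blocked ones, as they did for 12% of all transcripts, and the ratio of mean CPM was 4.73. The log2 fold change was 2.24 ± 0.59 (edgeR unadjusted p = 0.00207, adjusted p = 0.196; DESeq2 2.34, adjusted p = 0.012). Naive nucleolin IP held 222, 192 and 66.4 CPM and naive blocked IP 73.3, 26.0 and 56.7 CPM. There the lowest IP library fell below the highest blocked one, and the log2 fold change was 1.62 ± 0.57 (edgeR adjusted p = 0.259). The difference between injured and naive enrichment was 0.62 ± 0.79 (edgeR adjusted p = 1). With the PTBP1 antibody Ngfr was near its background, at -0.04 ± 0.89 in naive and -0.44 ± 0.89 in injured nerve.

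The Sox4 estimates had opposite signs with the antibodies after injury, and neither was called. Injured nucleolin IP (71.1 to 108 CPM) lay wholly below its blocked IP (139.8 to 261 CPM), as 6.02% of all transcripts did, with a log2 fold change of -1.03 ± 0.84 (edgeR adjusted p = 0.991). Injured PTBP1 IP (125 to 450.3 CPM) lay wholly above its blocked IP (94.9 to 120.2 CPM), as 16.6% of all transcripts did, with a log2 fold change of 1.63 ± 0.73 (edgeR unadjusted p = 0.041, adjusted p = 0.368). In naive nerve both overlapped, with log2 fold changes of 0.70 ± 0.84 for nucleolin and -0.79 ± 0.71 for PTBP1. The change of enrichment with injury was 2.41 ± 1.01 for PTBP1 (edgeR unadjusted p = 0.0315, adjusted p = 0.585) and -1.72 ± 1.19 for nucleolin (edgeR adjusted p = 1). The difference between the antibodies was not tested.

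**Figure D4:**
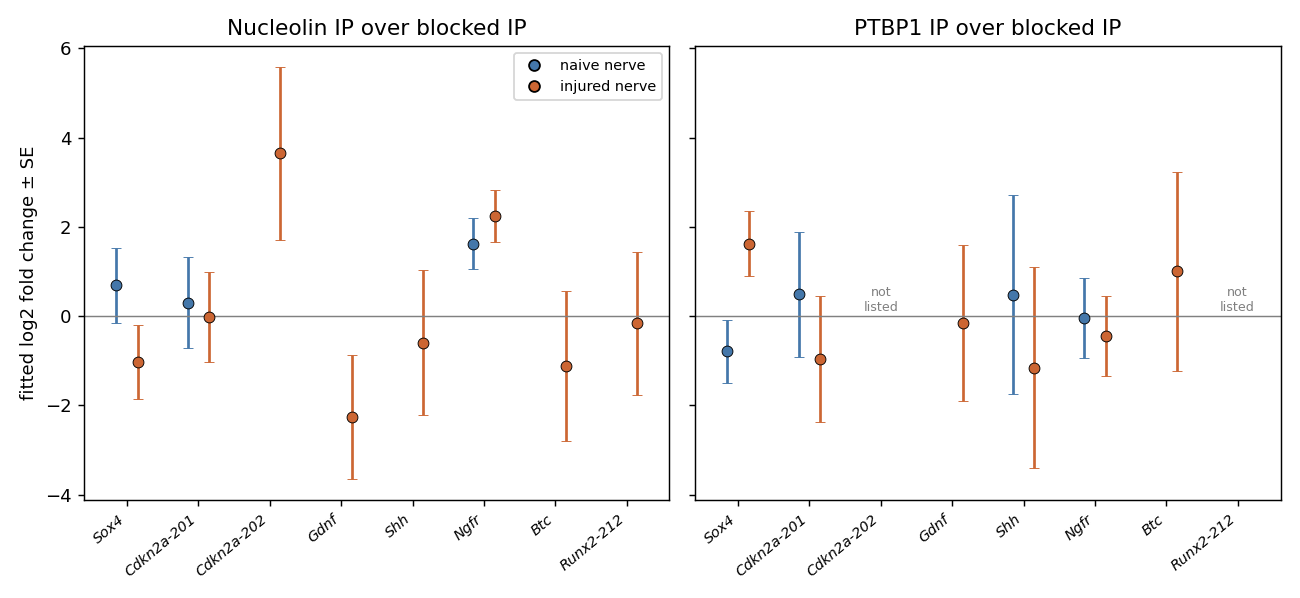
Fitted log2 fold change of IP over blocked IP, with bars of 1 SE, for nucleolin and PTBP1 in naive and injured nerve. Ngfr stands at 1.62 and 2.24 for nucleolin and near 0 for PTBP1. Sox4 stands at -1.03 for nucleolin and 1.63 for PTBP1 after injury, and no value was called. Runx2-204 and the naive PTBP1 values of Gdnf and Btc, with at most 1 count in the blocked group, are not drawn.

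Runx2 transcripts appeared in single tables. Runx2-204 (chr17:44607531-44814581, minus strand, 8 exons, protein coding) had 10, 38 and 7 counts in injured PTBP1 IP and 37, 3 and 18 in naive PTBP1 IP. None of the 6 PTBP1 blocked libraries held a count. Against the floor of 3 counts over the group it was at least 18.7-fold higher in injured and at least 23.6-fold higher in naive IP, and edgeR's adjusted p were 0.217 and 0.222 (DESeq2 0.0385 and 0.0294). The table required 5 counts in all 3 libraries of at least 1 group, and Runx2-204 met this in injured IP alone, so some excess over blocked IP there follows from its being listed. Transcripts at 0 made up 16.9 to 28.7% of injured and 15.8 to 30.4% of naive blocked libraries, and 1.64 to 7.26% and 3.10 to 19.3% of the IP libraries; the part of this in the result was not tested. Injured and naive IP overlapped, with a ratio of summed counts over summed library sizes of 0.998 (95% counting interval 0.678 to 1.47).

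Runx2-212 (chr17:44495987-44736176, minus strand, 6 exons), annotated as a target of nonsense-mediated decay, was listed for injured nucleolin alone. It had 16, 11 and 54 counts in IP and 0, 86 and 26 in blocked IP, with full overlap (log2 fold change -0.16 ± 1.60, edgeR adjusted p = 0.992). Runx2-212 met the filter in IP alone, so its being listed favoured IP over blocked IP. No table listed both transcripts, and they overlap in the genome. No source used here says how reads were divided among the transcripts of a gene.

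The ARF form of Cdkn2a, Cdkn2a-202, was likewise listed for injured nucleolin alone. It had 118, 20 and 21 counts in IP and 0, 0 and 17 in blocked IP, or 10.2, 1.73 and 1.45 against 0, 0 and 1.05 CPM. The groups were apart, as for 13.2% of the 14936 transcripts tested in that table, but the log2 fold change of 3.65 ± 1.95 was not called (edgeR adjusted p = 0.757). IP library 1 gave most of the counts. This transcript too met the filter in IP alone, and the blocked libraries at 0 were those with 21.8% and 11.0% of all transcripts at 0, against 1.54% in the third. Cdkn2a-201 in the same libraries held 5.60 to 10.6 CPM in IP and 3.90 to 14.1 CPM in blocked IP, a log2 fold change of -0.03 ± 1.01; with shared exons, the counts of the 2 transcripts are not separate measurements of the 2 forms.

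For the secreted signals, IP and blocked IP overlapped. In injured nucleolin libraries Gdnf held 0.43, 2.16 and 3.72 CPM in IP and 25.2, 1.26 and 3.70 CPM in blocked IP, with a log2 fold change of -2.25 ± 1.39 that rests on 500 counts in blocked library 1. Shh held 3.01, 1.99 and 6.47 CPM in IP and 10.1, 0 and 7.16 CPM in blocked IP. Btc held 1.12, 2.59 and 4.68 CPM in IP and 0, 7.01 and 11.2 CPM in blocked IP. Log2 fold changes were -0.59 ± 1.62 and -1.11 ± 1.68, and edgeR's adjusted p for the 3 genes were 0.797, 0.963 and 0.931. Shh and Btc met the filter of the injured nucleolin libraries through IP alone, so their being listed favoured IP over blocked IP.

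For PTBP1 in injured nerve the log2 fold changes were -0.16 ± 1.74 for Gdnf, -1.15 ± 2.25 for Shh and 1.01 ± 2.23 for Btc, with overlap in each. In naive nerve Btc had 542 counts in IP, 526 of them in library 2, against 1 in blocked IP, and the groups overlapped because IP library 1 held none (edgeR adjusted p = 0.244; DESeq2 0.00332). Without IP library 2 the log2 fold change was 3.85 in place of 9.07 (edgeR adjusted p = 0.638). Cdkn2a-201 stood at 0.49 ± 1.39 in naive and -0.96 ± 1.40 in injured nerve for PTBP1, and at 0.30 ± 1.02 in naive nerve for nucleolin, all with overlap.

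The transcripts were also compared for the tetramer TCTT, one of the pyrimidine-rich words that PTBP1 is known to bind, on the sense strand of the annotated transcript. This word was chosen after the results were seen. The median of 19974 listed transcripts was 5.05 matches per kb. Sox4 had 36 matches in 4795 nt, or 7.51 per kb, more than 84.4% of listed transcripts. Cdkn2a-202 had 8.94 per kb and Cdkn2a-201 7.04, Btc 5.91, Runx2-212 5.68, Gdnf 4.63, Runx2-204 3.89, Shh 3.86 and Ngfr 2.90, with Ngfr above 16.5% of listed transcripts. A count of letters says nothing about binding, and Runx2-204 lay below the median.

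Over all 30 libraries 3 repair transcripts were listed in every table with a mean of at least 1 CPM, and the transcripts with the most similar log2(CPM + 1) among 10132 were found for each. For Sox4 these were Cln6 (Pearson r = 0.903), a protein of the endoplasmic reticulum, Abcg1 (0.883), a cholesterol exporter, and Plxna1 (0.872), a semaphorin receptor. For Ngfr the first in rank were Chst2 (0.903), a sulfotransferase, and Cat (0.899), catalase. For Cdkn2a-201 they were Gm5321 (0.863), a transcript of Ctsd (0.858), a lysosomal protease, and Evi2a (0.85). CPM were scaled in separate fits for input and for each antibody, so the 30 levels are not on a common scale. The r values may therefore also hold differences between fits. The points share libraries, depth, condition and antibody, and no test was made.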

How the data were processed

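Whole-number counts per Ensembl transcript, deposited by the authors in 4 tables used here, were analysed. Reads came from CASAVA 1.8.2, with edgeR, mm10 and GRCm38 named, per the submitters' processing notes. No source used here names the aligner, the counting tool or the use of strand. Per-sample columns of other units, 114 in all, were not used. A column lettered PCP was taken as blocked library 3 of its group; for PTBP1 it equalled a column lettered as control in another table, while for naive nucleolin this could not be checked. The tables were filtered before deposit: at least 5 counts in all 3 libraries of a group, or, for inputs, in injured inputs 2 and 3.

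Tests used edgeR 4.0.16 in R 4.3.3 (quasi-likelihood, TMM, filterByExpr, Benjamini-Hochberg over all transcripts tested, two-sided, adjusted p 0.05). The 6 inputs formed one fit and the 12 libraries of each antibody another; for nucleolin it covered the 11862 transcripts of both tables. Transcripts listed for injured nucleolin alone were fitted in that table. The SE of an edgeR log2 fold change was taken as its absolute value over the square root of the quasi-likelihood F statistic. It is not a directly estimated error. DESeq2 1.42.0 was an alternative. The scripts were tested on simulated counts. CPM use TMM-scaled library sizes, so levels compare within a fit. Intervals are Clopper-Pearson and cover counting error only. Coordinates are from GENCODE M21, which held 97.8% of identifiers.

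Genes named were every transcript of the 9 genes, up to 4 called genes with the largest change per pathway list, and the 3 most similar transcripts, 1 of which is not reported here; a listed gene was measured by its most abundant tested transcript. The genes, lists and motifs were chosen with earlier results of these data known. Same-numbered libraries correlated above 0.1 in every pair for nucleolin IP, injured against naive (0.332, 0.119 and 0.555). So they did for PTBP1 IP over blocked IP in injured nerve (0.113, 0.142 and 0.313). The main tests did not use this pairing. The replicate block, which does, was an alternative fitted for every comparison. That a repeat came from separate animals is the labels' statement; p-values measure the spread between these samples.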

Additional observations from a re-analysis of the deposited data

How the results depend on the processing

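Counts over all transcripts depended on the test. In input, library totals alone in place of TMM gave 2327 calls (846 higher, 1481 lower) in place of 3924 (2037 higher, 1887 lower). For nucleolin IP over blocked IP, naive, library totals gave 39 calls and DESeq2 761, and for injured nerve DESeq2 gave 314, where edgeR gave 0. For nucleolin IP, injured against naive, DESeq2 gave 725, the 6 compared libraries alone 495 and the replicate block 334, in place of 98, and for nucleolin blocked IP they gave 1623, 0 and 475 in place of 184. For PTBP1 IP over blocked IP DESeq2 gave 1099 in naive and 902 in injured nerve, where edgeR gave 0. For PTBP1 IP, injured against naive, DESeq2 gave 676, the 6 libraries 12 and the block 6, in place of 1, and for PTBP1 blocked IP 2497, 0 and 44 in place of 4. For the change of enrichment with injury DESeq2 gave 20 calls for nucleolin and 415 for PTBP1, where edgeR gave 0. Leaving out 1 library in turn gave 2514 to 3821 calls in input. For nucleolin the same gave 0 to 320 (IP over blocked IP, naive), 0 to 15 (injured), 2 to 27 (IP, injured against naive), 13 to 419 (blocked IP) and 0 to 5 (change of enrichment). For PTBP1 it gave 0 to 0, 0 to 4, 0 to 5, 0 to 21 and 0 to 0 in that order. The cause was not tested.

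Of 747 alternative values for 59 results on the repair genes, 685 kept their direction and side of the threshold, 20 moved past the threshold, 1 lost it and 41 changed sign, none of the last from a called value. In input 4 of the 6 transcripts rose under the main test, 5 by DESeq2 and with counts summed per gene, and 3 without injured input 2, the one that was lost being Cdkn2a-201. Without naive input 1, 4 rose and Ngfr fell. The replicate block changed 1 call, Sox4 in nucleolin blocked IP. Btc in PTBP1 blocked IP, injured against naive, passed by DESeq2 alone (adjusted p = 0.033).

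Signs changed as follows, as log2 fold changes of IP over blocked IP unless stated. Cdkn2a-201 in injured nucleolin gave 0.046 with median-of-ratios size factors and with DESeq2, 0.051 with the replicate block and 0.007 with 6 libraries. The replicate block gave Shh 0.61, Runx2-212 1.26 and Btc 0.10 in injured nucleolin, and Shh 0.64 in injured PTBP1. Gdnf in injured PTBP1 gave 0.10 with median-of-ratios factors and DESeq2 and 0.30 with the block. For PTBP1 IP, injured against naive, the block gave Runx2-204 -0.074 and Btc 0.65, and for the change of PTBP1 enrichment it gave Shh 0.63. With 1 library left out, ranges across 0 for nucleolin IP over blocked IP were -0.20 to 0.81 (Cdkn2a-201, naive), -0.39 to 0.58 (Cdkn2a-201, injured), -1.20 to 0.045 (Shh) and -0.95 to 1.22 (Runx2-212). The range was -0.62 to 0.12 for Ngfr in nucleolin IP, injured against naive, and -0.83 to 0.23 for the change of Cdkn2a-201 enrichment. For PTBP1 IP over blocked IP they were -3.67 to 3.32 (Shh, naive), -0.19 to 0.20 (Ngfr, naive), -0.72 to 0.72 (Gdnf, injured) and -1.74 to 1.81 (Shh, injured). For PTBP1 IP, injured against naive, they were -1.11 to 1.75 (Runx2-204) and -2.26 to 3.53 (Btc), and for the change of Shh enrichment -4.48 to 2.52.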
